A study of Mus musculus with 6 samples.

Results

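The growth hormone axis of the liver was followed through 10 genes: the growth hormone receptor gene Ghr, the kinase gene Jak2, the transcription factor genes Stat5a and Stat5b, the repressor genes Bcl6 and Cux2, the feedback inhibitor genes Socs2 and Cish, and the secreted products Igf1 and Igfals. The genes were chosen by symbol from rows with exactly 1 annotated gene, with the brightest row kept where a gene had several. All 10 were measured, out of 22180 genes tested. The values come from whole liver of C57BL/6 mice on 6 Affymetrix arrays, 3 of wild-type animals and 3 of Pfn2-/- animals, which lack profilin 2, a small actin-binding protein. In each genotype replicates 1, 2 and 3 were 9, 8.5 and 8 months old, and no treatment was given. The sources used here do not give how the Pfn2 allele was made, whether the mice were littermates, or their sex, feeding state and time of day at collection.

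In the liver, growth hormone binds its receptor, which activates the kinase JAK2. JAK2 phosphorylates STAT5A and STAT5B, which enter the nucleus and induce IGF-1, the acid-labile subunit that carries it in blood, and the inhibitors SOCS2 and CIS, which damp the receptor. STAT5 also represses Bcl6, whose product is a repressor that recognises sequences like those of STAT5. In rodents males release growth hormone in pulses and females more continuously, and Bcl6 is known as the more male and Cux2 as the more female of the repressors in liver.

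STAT5 dimers bind the sequence TTCNNNGAA, which reads the same on either strand, so that 1 search covers both, and which BCL6 sites can overlap. The letters were searched from 250 bases before to 50 bases after annotated starts in RefSeq sequence of GRCm38.p6. Of the 10 genes 9 were found there, with 16 windows. Over all 32851 windows 8.30% held at least 1 match, and 9.55% of all 27025 genes had such a window. Matches lay in windows of 3 of the 9 genes, Bcl6, Cish and Igfals, in 5 of the 16 windows. The stretches below are shown because Bcl6 and Cish are set against each other in the results, and Igfals is the other gene with a match. Matches are in capitals, all sequences run 5′ to 3′ on the gene's own strand, and position 1 is the annotated start:
Bcl6, downstream start (chr16:23981334-23981473, minus strand): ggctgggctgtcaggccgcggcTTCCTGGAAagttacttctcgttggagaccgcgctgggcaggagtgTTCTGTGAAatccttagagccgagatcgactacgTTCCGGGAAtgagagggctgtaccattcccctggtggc
Bcl6, upstream start (chr16:23988923-23989002, minus strand): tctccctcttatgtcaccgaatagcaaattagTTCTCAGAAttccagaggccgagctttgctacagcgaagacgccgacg
Cish (chr9:107296559-107296678, plus strand): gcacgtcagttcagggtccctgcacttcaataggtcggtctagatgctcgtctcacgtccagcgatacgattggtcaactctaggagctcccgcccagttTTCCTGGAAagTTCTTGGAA
Igfals, first window (chr17:24877594-24877643, plus strand): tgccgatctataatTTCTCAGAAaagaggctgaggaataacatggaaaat
Igfals, second window (chr17:24878151-24878210, plus strand): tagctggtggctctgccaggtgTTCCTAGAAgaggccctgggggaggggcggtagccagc

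The downstream Bcl6 window held 3 matches, beginning at positions -168, -122 and -88, and at least 3 were found in 11 of all windows (0.0335%). The Cish window held 2 matches, beginning at positions 1 and 12, and at least 2 were found in 150 windows (0.457%). A match describes these letters only, and no binding was measured in these samples.

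Array medians lay between 4.36 and 4.41, and an array gives no read depth, so the number of arrays limits the precision. The row of Pfn2 was dim, at 3.85 to 4.09 in wild type and 3.81 to 3.93 in the knockout, and the position of its probes in the gene is unknown, so it checks no label. All 8 hepatocyte markers were measured, the dimmest with a mean of 7.95 against a median of 4.72 over all gene means. The Y-linked genes Kdm5d and Uty lay at 6.19 to 7.38 and Xist at 3.28 to 3.85 over the 6 arrays. The lower quartile of gene means was 3.8. All 6 arrays, of both genotypes, thus had the pattern of male tissue, although no label gives the sex. No array stood apart in its correlation with the others, the lowest of which was 0.979 over all rows. Single arrays still decided several results below and are named there.

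None of the 10 genes passed a Benjamini-Hochberg adjusted p of 0.05 between the genotypes in limma, and 0 of all genes tested did (0%). At an unadjusted p under 0.05 there was 1 of the 10, Ghr, against 5.29% of all genes, so the share among so few genes is close to that of the array as a whole. The genotypes did not overlap for 2 of the 10, Ghr with higher and Igf1 with lower knockout values, against 9.85% of all genes. In 5 genes the knockout mean was above wild type and in 5 it was below, with a median difference of 0.00 over the 10 genes and of -0.00 over all genes. Each difference below is the Pfn2-/- mean minus the wild-type mean of log2 values, with 3 arrays in a group, and SE stands for its standard error in the limma fit. No culture or litter is named for the replicas, which are described as independent and biological.

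**Figure D1:**
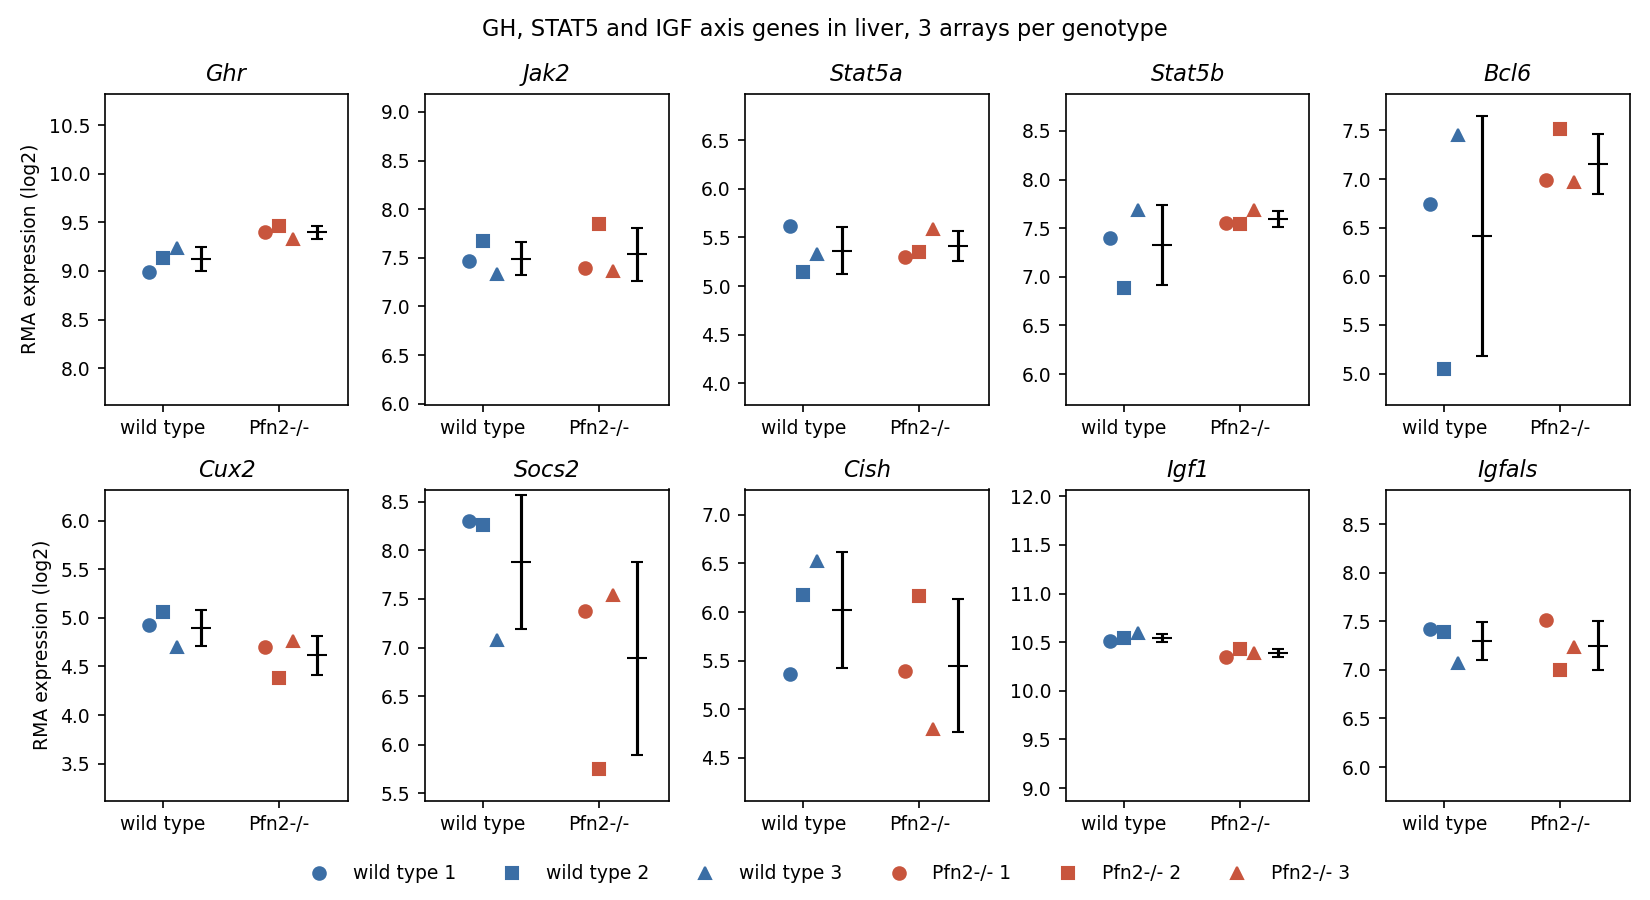
RMA expression on the log2 scale of the 10 genes in each array, wild type in blue and Pfn2-/- in red, with a marker shape for each replicate number and the mean ± SD of each group in black. Every panel spans the same 3.2 log2 units, so that the wide spread of Bcl6, Socs2 and Cish can be set against the narrow spread of Igf1.

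**Figure D2:**
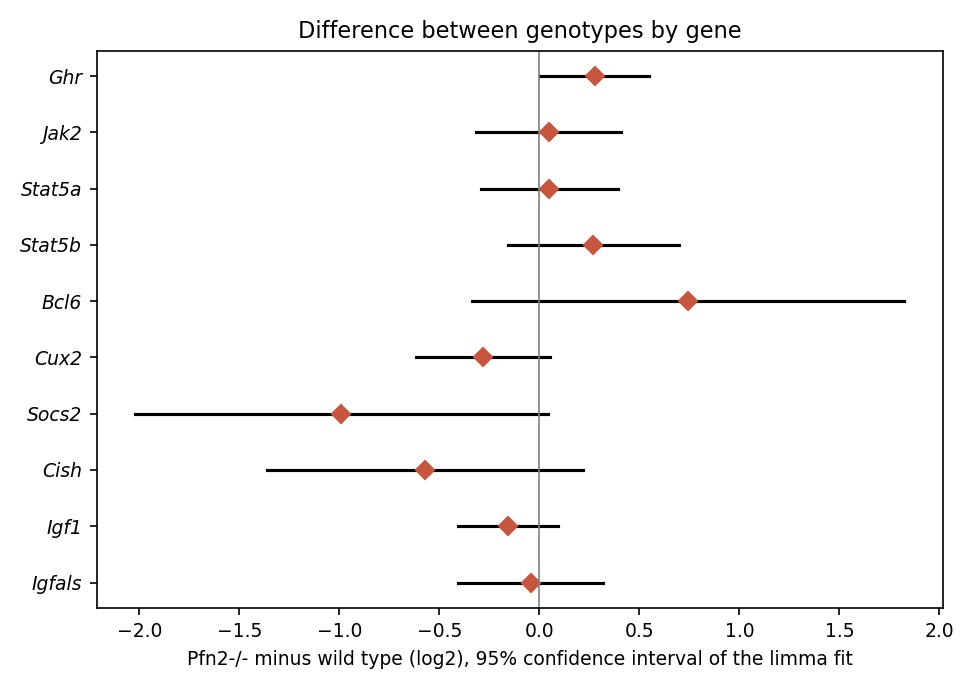
Difference between Pfn2-/- and wild type (log2) for each gene, with the 95% confidence interval of the limma fit. The interval of Ghr lies just above 0 (0.00 to 0.55), and those of the other 9 genes include 0.

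The receptor gene Ghr had log2 values of 8.99, 9.13 and 9.24 in the wild-type arrays against 9.40, 9.46 and 9.33 in the knockout arrays. All 3 knockout arrays lay above all 3 wild-type arrays. The difference was 0.28 (SE 0.12, 95% confidence interval 0.00 to 0.55), a fold of 1.21, with an unadjusted p of 0.0477 and an adjusted p of 0.92. Leaving out single arrays moved it between 0.21 and 0.34, and the unadjusted p stayed under 0.05 only without wild-type replicate 3 (0.0353).

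Jak2, the kinase bound to the receptor, showed no difference beyond its spread. Its values were 7.47, 7.67 and 7.33 in the wild-type arrays against 7.40, 7.85 and 7.36 in the knockout arrays. Replicate 2 was the highest array of either genotype. The difference was 0.05 (SE 0.16, 95% confidence interval -0.32 to 0.41), and its sign turned when wild-type replicate 3 or knockout replicate 2 was left out.

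Of the STAT5 genes, Stat5b, whose product carries most growth hormone signalling in male liver, varied chiefly in wild type. It lay at 7.40, 6.88 and 7.69 there and at 7.55, 7.54 and 7.69 in the knockout. Wild-type replicate 2 was the lowest array, the other 5 lying within 7.40 to 7.69. The difference of 0.27 (SE 0.19, adjusted p = 0.954) was 0.05 without that array and 0.45 without wild-type replicate 3. Stat5a was dimmer, at 5.62, 5.14 and 5.33 in the wild-type arrays against 5.30, 5.35 and 5.59 in the knockout arrays. The groups overlapped, with a difference of 0.05 (SE 0.15) whose sign turned with array weights and without wild-type replicate 2 or knockout replicate 3. Stat5a and Stat5b are close paralogs that probes may not fully tell apart, so both rows are uncertain.

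Bcl6, the repressor gene that STAT5 holds down, had 1 array far below the rest. Its values were 6.74, 5.05 and 7.45 in the wild-type arrays against 6.99, 7.51 and 6.97 in the knockout arrays. Wild-type replicate 2 was the lowest, as it was for Stat5b, while wild-type replicate 3 reached the knockout range. The difference was 0.74 (SE 0.48, 95% confidence interval -0.34 to 1.82, adjusted p = 0.954). It was 0.06 without wild-type replicate 2 and 1.26 without wild-type replicate 3, where the unadjusted p was 0.0125, so 1 array decided its size. The SD of Bcl6 over the 6 arrays was 0.90, at percentile 99.7 of all genes.

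Markers of immune cells were also high in the array with the lowest Bcl6. The 8 Kupffer cell markers, each centred on its own mean, averaged 0.45 in wild-type replicate 2 and -0.23 to -0.01 in the other 5 arrays. Their summed linear level was 1260 to 2013 in wild type and 1414 to 1436 in the knockout, and the dimmest marker had a mean of 6.40. For 7 measured T and NK cell markers, the dimmest with a mean of 3.95, the mean was 0.59 in that array and -0.28 to 0.11 in the others. Their summed linear level was 141 to 264 in wild type and 142 to 184 in the knockout. That array was also the highest for B cell (0.23), sinusoidal endothelium (0.25), stellate cell (0.15) and hepatocyte (0.10) markers, though not for cholangiocyte markers (-0.06). The rise was thus not particular to immune cells. The part of these cells in the Bcl6 values was not tested. In whole liver more cells of a type and more RNA per cell cannot be told apart.

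Cux2, the other repressor gene, was dim, at percentile 50.6 of all gene means. It lay at 4.93, 5.06 and 4.70 in the wild-type arrays against 4.70, 4.38 and 4.76 in the knockout arrays. The groups overlapped at 4.70 to 4.76, and knockout replicate 2, the array with the highest Bcl6, was the lowest. The difference was -0.28 (SE 0.15, 95% confidence interval -0.62 to 0.05, adjusted p = 0.943), and it was -0.17 without that array. RMA compresses differences of dim rows, so its size is not exact.

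Socs2, which encodes an inhibitor that helps degrade the receptor, had the largest difference of the 10 genes. Its brighter row lay at 8.30, 8.26 and 7.08 in the wild-type arrays against 7.38, 5.75 and 7.54 in the knockout arrays. Wild-type replicates 1 and 2 were the highest arrays and knockout replicate 2 by far the lowest, while wild-type replicate 3 lay inside the knockout range. The difference was -0.99 (SE 0.46, 95% confidence interval -2.02 to 0.04), 1.99-fold, with an unadjusted p of 0.0582 and an adjusted p of 0.92. Leaving out knockout replicate 2 brought it to -0.42 and leaving out wild-type replicate 3 to -1.39, with unadjusted p-values of 0.234 and 0.012. Over 18 alternatives the unadjusted p was under 0.05 in 5.

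The dimmer Socs2 row separated the genotypes. It lay at 5.58, 5.69 and 5.32 in the wild-type arrays against 5.09, 5.0 and 5.13 in the knockout arrays, so that the groups did not overlap. Tested among all 23521 rows with 1 symbol, a setting added after the values were seen, its difference was -0.46 (SE 0.13, 95% confidence interval -0.76 to -0.16), with an unadjusted p of 0.00683 and an adjusted p of 0.794. The Socs2 rows thus differed in the same direction, with neither past the adjusted threshold. Knockout replicate 2 was the lowest array in both, while the far lower value it had in the brighter row was not seen in the dimmer one.

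Cish, which encodes the inhibitor CIS, did not follow Socs2 from array to array. Its brighter row lay at 5.36, 6.18 and 6.52 in the wild-type arrays against 5.39, 6.16 and 4.80 in the knockout arrays. The groups overlapped, with knockout replicate 3 lowest and wild-type replicate 3 highest. The difference was -0.57 (SE 0.35, 95% confidence interval -1.36 to 0.22, adjusted p = 0.953). With knockout replicate 2 left out it was -0.92, and with wild-type replicate 1 left out -0.90, each with an unadjusted p under 0.05 (0.0172 and 0.0261). The smallest values came with a replicate 3 left out, at -0.24 for the knockout array and -0.32 for the wild-type one. The dimmer Cish row, at 4.70 to 4.94 over all 6 arrays, differed by 0.05 (SE 0.12), so the rows of this gene differed in sign.

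Knockout replicate 3, the array with the lowest Cish, was also highest in acute-phase and heat shock genes. Saa2, an acute-phase gene of hepatocytes, lay at 7.80, 7.11 and 6.76 in the wild-type arrays against 10.83, 7.31 and 12.22 in the knockout arrays. The 8 heat shock genes averaged 0.85 in that array after centring and -0.23 to -0.02 in the others. Knockout replicate 1 was the next highest in acute-phase genes (0.68 after centring) and had Cish at 5.39, within the wild-type range. Leaving out knockout replicate 3 removes the lowest Cish value, which by itself makes the difference smaller. The part of the acute-phase and heat shock genes in the Cish values was not tested.

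**Figure D3:**
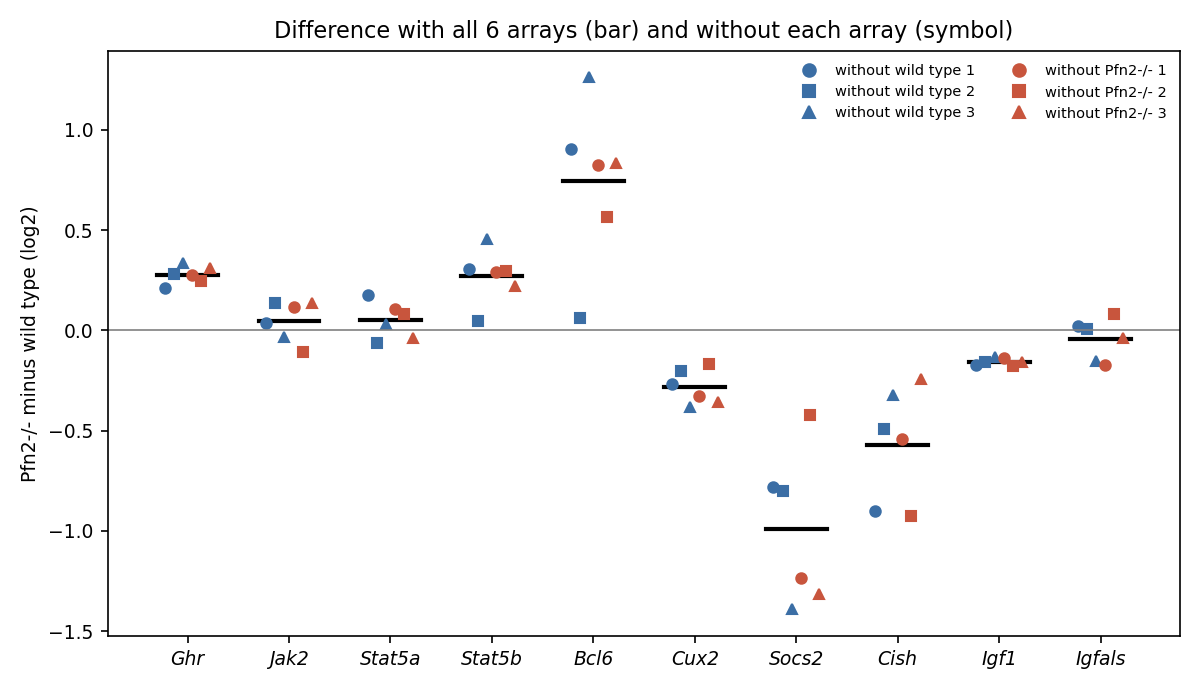
Difference between Pfn2-/- and wild type (log2) for each gene with all 6 arrays (black bar) and with 1 array left out (symbols, in the colour of the genotype of the array that was left out). Bcl6 comes close to 0 without wild-type replicate 2 (0.06) and Socs2 moves to -0.42 without knockout replicate 2, while Igf1 stays between -0.18 and -0.14.

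The brighter rows of Socs2 and Cish were then set against Bcl6. STAT5 is known to induce Socs2 and Cish and to repress Bcl6. Within each array the log2 value of Bcl6 was subtracted. The level of such a difference between rows has no meaning, but its change between genotypes does. Socs2 minus Bcl6 was 1.56, 3.21 and -0.37 in the wild-type arrays against 0.39, -1.76 and 0.57 in the knockout arrays. Wild-type replicate 3 lay below 2 of the 3 knockout arrays. The means were 1.47 ± 1.79 (SD, n = 3) and -0.27 ± 1.30 (SD, n = 3), a change of -1.73 (SE 1.28, exact permutation test, two-sided, p = 0.3, where 3 against 3 arrays cannot go below 0.1). Leaving out wild-type replicate 2 gave -0.86, leaving out knockout replicate 2 gave -0.99 and leaving out wild-type replicate 3 gave -2.65.

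Cish minus Bcl6 was -1.38, 1.13 and -0.93 in the wild-type arrays against -1.60, -1.35 and -2.17 in the knockout arrays. Wild-type replicate 2 stood above the rest, and wild-type replicate 1 lay within the knockout range. The change was -1.31 (SE 0.81, exact permutation test, two-sided, p = 0.2). It was -0.55 without wild-type replicate 2. Both contrasts were negative under every setting run, and both share the Bcl6 values, among them the low value of that 1 array.

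Over single arrays Socs2, by its brighter row, and Bcl6 ran in nearly opposite order. Wild-type replicates 1 and 2 had the highest Socs2 and the lowest Bcl6, knockout replicates 3 and 1 followed in both, and wild-type replicate 3 and knockout replicate 2 had the lowest Socs2 and the highest Bcl6. Spearman's rho was -0.94 over 6 arrays (exact permutation p = 0.0167, adjusted p = 0.05 over 3 relations) and Pearson's r was -0.69 (exact permutation p = 0.149, adjusted p = 0.446). Neither adjusted value is under 0.05. Without wild-type replicate 2 and knockout replicate 2, the arrays farthest from the median of Bcl6, r was -0.88 over 4 arrays. With each genotype centred on its own mean r was -0.59, and 3 arrays are too few for a value within a genotype. The order of Socs2 depends on the row. In its dimmer row wild-type replicate 3 (5.32) lay above all knockout arrays (5.0 to 5.13), and no correlation was computed for that row.

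For Cish neither relation had an adjusted p under 0.05. With Bcl6 its r was -0.06 (exact permutation p = 0.942, adjusted p = 0.942) and rho was 0.26 (exact permutation p = 0.658, adjusted p = 0.658). With Socs2 its r was -0.34 (exact permutation p = 0.511, adjusted p = 0.767) and rho was -0.43 (exact permutation p = 0.419, adjusted p = 0.629). Without wild-type replicate 2 and knockout replicate 2 the r with Bcl6 was 0.80, and without wild-type replicate 1 and knockout replicate 2 the r with Socs2 was 0.01, over 4 arrays each. With each genotype centred on its own mean the r of Cish was 0.20 with Bcl6 and -0.86 with Socs2.

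**Figure D4:**
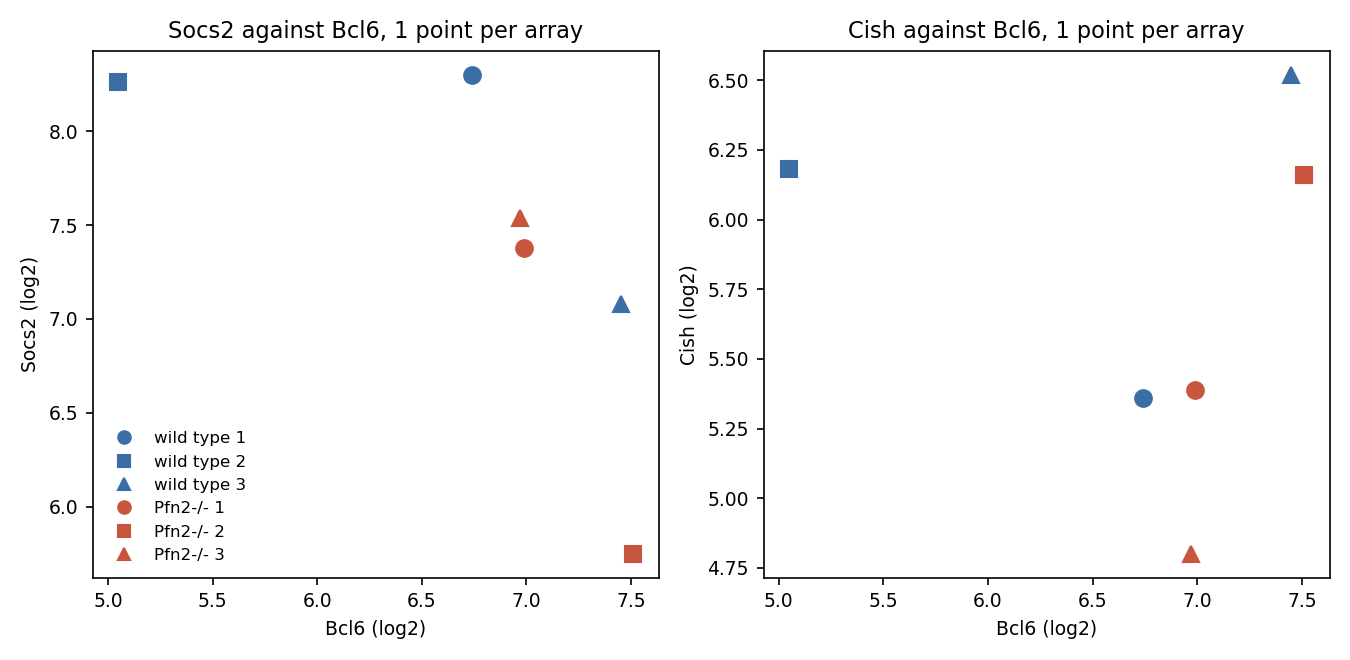
Log2 expression of the brighter rows of Socs2 (left) and Cish (right) against that of Bcl6, with 1 point per array, wild type in blue and Pfn2-/- in red. Socs2 runs down from 8.30 to 5.75 as Bcl6 runs up to 7.51, with wild-type replicate 3 among the knockout arrays, while the Cish points show no common slope.

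Among 1383 genes with a mean above the median and an SD of at least 0.3, a few had patterns very like these over the 6 arrays, as is common with so few points. The closest to Socs2 were Slc7a5, an amino acid transporter gene (r = -0.97), Elof1 (0.95) and the endothelial lipase gene Lipg (0.95). For Cish they were the cell cycle factor gene E2f8 (r = -0.98), Snx29 (-0.97) and Gulp1 (-0.96). For Bcl6 they were Cyp2c38, a cytochrome P450 gene whose row is uncertain because of close paralogs (r = -0.98), the cathepsin gene Ctss of phagocytes (-0.96) and the interferon-inducible Ifi205 (-0.95). An absolute r above 0.9 was reached by 21 genes for Socs2, 12 for Cish and 21 for Bcl6.

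Igf1, the main hormone made by the liver under growth hormone, was the least variable of the 10 genes. It lay at 10.51, 10.54 and 10.59 in the wild-type arrays against 10.35, 10.43 and 10.39 in the knockout arrays. All knockout arrays lay below all wild-type arrays, with an SD of 0.04 in each group. The difference was -0.16 (SE 0.11, 95% confidence interval -0.41 to 0.10, adjusted p = 0.956), a fold of 1.11. The SE of the fit borrows from the spread of all genes and was larger than the 0.033 that the SDs of this gene alone give. Without single arrays the difference was -0.18 to -0.14, and the unadjusted p was 0.194 with all arrays and 0.0949 with a trend on mean expression, the lowest of all settings run.

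Igfals encodes the acid-labile subunit, which holds IGF-1 and its binding protein in the circulation. It lay at 7.42, 7.39 and 7.07 in the wild-type arrays against 7.51, 7.0 and 7.24 in the knockout arrays. The groups overlapped fully, with a difference of -0.04 (SE 0.16, 95% confidence interval -0.41 to 0.32). Its sign turned without wild-type replicate 1 or 2 or knockout replicate 2. Wild-type replicate 3 and knockout replicate 2, the arrays lowest in the brighter Socs2 row, also had the lowest Igfals.

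Other genes of the pathway were counted in 4 lists, with 50 of 55 measured. The lists were chosen with earlier results of these data known, so their counts and direction are no independent evidence. Of these 50 genes 0 passed the adjusted p and 5 had an unadjusted p under 0.05, all of them with lower knockout values, where 2.62% of all genes tested were lower at that p. The median difference over the 50 was -0.07, against -0.00 over all genes, with 13 above 0 and 37 below. The genotypes did not overlap for 1 higher gene and 5 lower ones, against 5.09% of all genes higher and 4.76% lower. The count at an unadjusted p under 0.05 was 3 when wild-type replicate 1 or knockout replicate 2 was left out, and 9 when wild-type replicate 3 was. The share of all genes at that p moved as well, to 4.08%, 6.57% and 7.03% in these settings.

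Among 11 measured partners of receptor signalling, 1 had an unadjusted p under 0.05 (5.29% of all genes did), Sh2b1, which encodes an adaptor that binds JAK2. It lay at 6.20, 6.09 and 6.02 in the wild-type arrays against 5.91, 5.68 and 5.87 in the knockout arrays, a difference of -0.28 (SE 0.12, adjusted p = 0.92). Its unadjusted p was under 0.05 in 10 of 18 alternatives. The insulin receptor substrate genes Irs1 and Irs2 differed by 0.25 (SE 0.13) and 0.24 (SE 0.16), and Sirpa by -0.12. The median of the list was -0.07.

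Among 14 inhibitors of cytokine receptor signalling, 1 did, a share close to that of all genes: Socs5, of the same family as Socs2. Its row lay at 4.94, 4.75 and 4.67 in the wild-type arrays against 4.42, 4.47 and 4.48 in the knockout arrays, below the median of all genes. The difference was -0.33 (SE 0.12, adjusted p = 0.915), with an unadjusted p under 0.05 in 15 of 18 alternatives. Socs3, the member that responds to inflammatory cytokines, differed by 0.21 (SE 0.25), Pias3 by 0.18 and the phosphatase gene Ptpn2 by -0.11. The median of this list was -0.06.

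Among 15 genes of IGF ligands, receptors, binding proteins and proteases, 1 did (5.29% of all genes did), Igfbp1, a binding protein gene that insulin represses. It lay at 8.41, 9.31 and 8.19 in the wild-type arrays against 5.28, 7.18 and 7.12 in the knockout arrays, without overlap. The difference was -2.11 (SE 0.47, 95% confidence interval -3.16 to -1.06, adjusted p = 0.668), 4.32-fold. It kept an unadjusted p under 0.05 in all 18 alternatives. The other binding protein genes named by the rule, Igfbp3, Igfbp5 and Igfbp2, differed by -0.37 (SE 0.26), -0.20 (SE 0.15) and -0.29 (SE 0.23), with overlapping groups. The 8 measured fasting genes other than Igfbp1 averaged 0.30, -0.01 and 0.03 after centring in the wild-type arrays against -0.13, -0.24 and 0.04 in the knockout arrays, so the genotypes overlapped. Of their differences 7 were below 0, as for Igfbp1, and 1 was above, with a median of -0.215. Of these 8 genes 1 had an unadjusted p under 0.05 (5.29% of all genes did). It was Ppargc1a, the coactivator gene of gluconeogenesis, with a difference of -0.66 (SE 0.25). The part of the fasting genes in the Igfbp1 values was not tested.

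Among 10 measured genes listed as liver transcription factors that act with STAT5, 2 did, where 5.29% of all genes did. Both had lower knockout values, and whether they act with STAT5 was not tested here. Trim24, a gene for a cofactor of nuclear receptors, lay at 7.88, 7.88 and 7.62 in the wild-type arrays against 7.30, 7.21 and 7.31 in the knockout arrays, a difference of -0.52 (SE 0.13, adjusted p = 0.714). It kept an unadjusted p under 0.05 in all 18 alternatives. Cebpb, a factor gene of the acute-phase and fasting responses, differed by -0.45 (SE 0.15, adjusted p = 0.882), with an unadjusted p of 0.0139 that was above 0.05 without knockout replicate 2. Onecut1, which growth hormone is known to induce, differed by -0.26 (SE 0.19) and Foxa3 by -0.29 (SE 0.26). The list's median was -0.12.

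**Figure D5:**
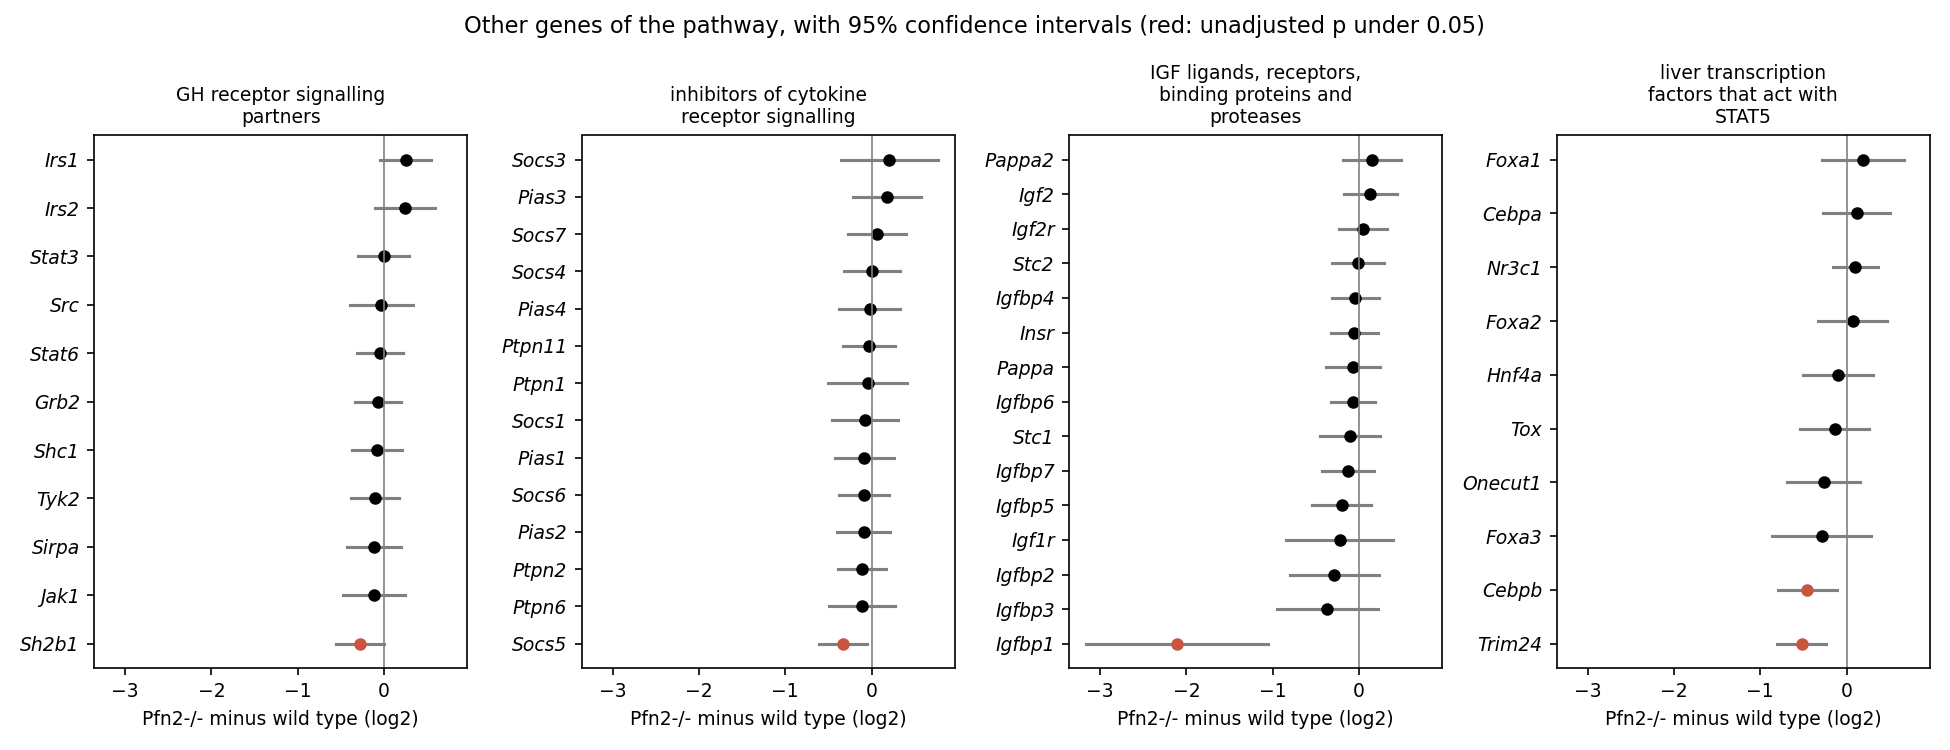
Difference between Pfn2-/- and wild type (log2) for the measured genes of 4 pathway lists, with the 95% confidence interval of the limma fit and genes at an unadjusted p under 0.05 in red. Most points lie within 0.3 of 0, and Igfbp1 at -2.11 stands far to the left.

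Genes whose liver expression differs between the sexes under growth hormone are known targets of this axis. These lists were chosen with earlier results known, so their direction is no independent evidence. Of 18 measured male-biased genes, 11 had higher knockout values at an unadjusted p under 0.05, where 2.67% of all genes did, and 0 passed the adjusted p. All 18 differences were above 0, with a median of 0.64. The oxysterol hydroxylase gene Cyp7b1 differed by 1.18 (SE 0.18), Elovl3 by 1.41 (SE 0.28), Ugt2b38 by 2.58 (SE 0.51) and Moxd1 by 3.23 (SE 0.82). Ugt2b38 lay at 4.44, 3.05 and 3.11 in the wild-type arrays against 7.24, 5.07 and 6.02 in the knockout arrays. Moxd1 lay at 6.55, 3.36 and 3.26 against 8.14, 6.33 and 8.39, so its groups overlapped. Both genes were below 3.8, the lower quartile of gene means, in wild-type replicates 2 and 3. Wild-type replicate 2, with the lowest Bcl6 and Stat5b, also had the lowest mean over the male-biased genes after centring (-0.81, against -0.31 to 0.64 in the others). Of 19 female-biased genes 6 had lower and 2 had higher knockout values at that p, where 2.62% and 2.67% of all genes did. The count of higher genes was 1 without knockout replicate 1. The 4 genes of smallest p were all lower: Acot3 (-1.51, SE 0.19), Nipal1 (-2.69, SE 0.46), Fmo2 (-1.17, SE 0.26) and Fmo4 (-0.93, SE 0.20). Over the whole list 9 differences were above 0 and 10 below, with a median of -0.00, so the signs had no common direction. The list mean after centring was 0.33, 0.52 and -0.01 in the wild-type arrays against -0.36, -0.09 and -0.39 in the knockout arrays, without overlap. Its summed linear level was 1270 to 3351 in wild type and 818 to 1104 in the knockout. Only 10 of the 19 genes lay above the median of gene means, and among these 6 were lower and 2 higher at that p. Its dimmest gene had a mean of 2.07, against a median of 4.72 over all gene means.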

How the data were processed

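Liver RNA was labelled with the GeneChip WT PLUS kit, per the labels' protocols. The deposited table holds log2 values of expression for each row on each array. RMA and limma are named per the submitters' processing notes, with versions, probe set level and annotation not given in the sources used here. RMA equalises arrays and compresses dim differences. Of 34390 rows, 23521 had exactly 1 gene symbol in the platform annotation, 1814 had several and 9055 were not listed. Each of 22180 genes was represented by its brightest row on average, and 1082 genes had several rows. Groups came from sample titles, and no sample was left out.

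limma 3.58.1 in R 4.3.3 compared Pfn2-/- with wild type (lmFit, eBayes, two-sided, Benjamini-Hochberg over all genes, prior degrees of freedom 5.71). Exact permutation tests used Python 3.11.15. A test on simulated data used 22180 genes, of which 200, picked from all genes, were given a change. Of genes with a log2 change of 1, 69.2% were called, and 96.4% of those with a change of 2. A mean of 6.8 unchanged genes per run were called as well. These shares hold over genes of all spreads, whereas the SDs of Socs2, Bcl6 and Cish lay at percentiles 99.8, 99.7 and 99.3. They therefore do not give the share that would be found for such variable genes.

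The 10 genes and all lists were chosen with earlier results of these data known. Named by rule were all 10 genes, up to 4 genes of smallest p per other list and 3 genes most correlated with each of Socs2, Cish and Bcl6. The sex chromosome genes and Pfn2 were named as checks. The acute-phase, heat shock, fasting and clock lists and the cell type markers describe the state of the samples. At an unadjusted p under 0.05, where 5.29% of all genes lay, were 1 of 8 measured heat shock genes, 3 of 11 acute-phase genes and 1 of 11 clock genes, all higher in the knockout, and 2 of 9 fasting genes, both lower. Hepatocyte, Kupffer, stellate, T and NK and B cell markers had 0 each, sinusoidal endothelium markers 1 lower and cholangiocyte markers 1 higher.

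Alternatives were other normalizations, filters, row choices, moderation, array weights, a block on the replicate number, age, and each array left out.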

Additional observations from a re-analysis of the deposited data

How the results depend on the processing

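None of the 10 genes passed the adjusted threshold under any alternative, and their adjusted p-values ran from 0.535 to 0.999. The count at an unadjusted p under 0.05, 1 with all arrays, was 0 with median centring, repeated quantile normalization, cyclic loess, the row of largest variance and age as a covariate. It was 2 with the mean of a gene's rows, with array weights and with every row of 1 symbol, a setting added after seeing the data. With single arrays left out it was 0 to 5, the 5 being Ghr, Stat5b, Bcl6, Cux2 and Socs2 without wild-type replicate 3, where 7.03% of all genes were past that p against 5.29% with all arrays. The other pathway genes numbered 3 to 9 with single arrays left out. Same-numbered arrays did not all deviate together (correlations of -0.0823, 0.155 and 0.0202), and not every array correlated best with its own number. The numbers were therefore not taken as pairs in the main fit. Same-numbered mice were of the same age, and so few arrays cannot exclude a pairing. With the replicate number as a block, 0 of the 10 genes and 5 of the other pathway genes were past the unadjusted threshold, Igfbp3 in place of Sh2b1. Of 180 values for single genes 8 changed sign: Stat5a was -0.014 with array weights, and with single arrays left out Stat5a ran from -0.062 to 0.18, Jak2 from -0.11 to 0.14 and Igfals from -0.17 to 0.082. Socs2 minus Bcl6 ran from -2.65 to -0.86 and Cish minus Bcl6 from -1.81 to -0.55 with single arrays left out. Over all genes the adjusted threshold was passed by 7 with the block, 2 with array weights, and, with 1 array left out, by 6 (wild-type replicate 3), 3 (knockout replicate 2), 2 (knockout replicate 3) and 1 (wild-type replicate 2). The cause of these shifts was not tested. Signal limits Cux2, Stat5a and the dimmer rows of Socs2 and Cish, which lie near the median of all genes.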
